A study of Mus musculus with 12 samples.

Results

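The genes described here are 37 mouse genes known to be imprinted, taken by gene name. On the arrays used here 36 of the 37 had at least 1 probe (72 probes in all), and no probe was found for Rtl1. A probe counted as measured where the scanner software marked it well above background on 2 or more of the 12 arrays. This left 35 of the 37 genes, out of 20835 genes kept of the 27008 on the array; Zim1 was above background on 1 array and was left out. In all, 33 of the 35 were above background on all 12 arrays, Nnat was above it on all 11 arrays that gave it a value, and Peg10 on 6.

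The study profiled total RNA of mouse embryonic stem (ES) cell lines carrying the reporters Stella-GFP or Dazl-GFP. All cultures grew with leukemia inhibitory factor (LIF) over irradiated feeder fibroblasts, either in DMEM with 15% fetal bovine serum (the FBS arm) or in serum-free B27N2 medium (the serum-free arm, which the labels name after 2i). For 2i the labels list the MEK inhibitor PD0325901 at 1 µM and Kenpaullone, an inhibitor of GSK3β, at 5 µM. Cells were collected at days 0, 3 and 10, which gives 6 groups of 2 arrays, 1 array from each line. Whether inhibitors were added to FBS cultures after day 0, and how long serum-free cultures had been in their medium or in 2i by day 0, is not stated in the labels. They give 1 culture per line, medium and day, so each p-value below measures the spread between these 2 lines after a constant line difference has been taken out, and not the spread between cultures of 1 line.

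In an imprinted gene, 1 parental copy is active and the other is silent. The choice is set by DNA methylation that the egg or the sperm lays down at imprinting control regions, and it is kept through the wave of demethylation in the early embryo by factors that include the zinc finger protein ZFP57 and its partner TRIM28. Imprinted genes sit in domains that share a control region, many of them act on growth of the embryo and placenta, and ES cells in culture are known to lose or gain imprints. The arrays measured the summed RNA of both copies, so they do not show which copy was active.

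The promoters of 4 genes are shown: Dlk1 and Meg3, which fell together over time, and Plagl1 and Nnat, which differed between the lines. Each runs from 250 bases before to 50 bases after the start site in RefSeq's annotation of GRCm38.p6, on the plus strand for all 4 genes, 5′ to 3′. Capitals mark the hexamer that ZFP57 binds when its CpG is methylated, TGCCGC, or its reverse complement GCGGCA; the 2 forms do not overlap here. Dlk1, which is transcribed from the paternal copy, lies at chr12:109452573-109452872 and Meg3, a noncoding RNA of the maternal copy, at chr12:109540746-109541045. Plagl1 lies at chr10:13090582-13090881 and Nnat at chr2:157559828-157560127, both active on the paternal copy.
Dlk1: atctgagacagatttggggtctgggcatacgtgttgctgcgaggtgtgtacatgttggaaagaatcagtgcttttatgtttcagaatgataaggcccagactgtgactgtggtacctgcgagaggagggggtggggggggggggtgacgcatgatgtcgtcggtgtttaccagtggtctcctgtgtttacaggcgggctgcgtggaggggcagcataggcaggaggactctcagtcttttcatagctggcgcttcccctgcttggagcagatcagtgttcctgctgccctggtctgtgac
Meg3: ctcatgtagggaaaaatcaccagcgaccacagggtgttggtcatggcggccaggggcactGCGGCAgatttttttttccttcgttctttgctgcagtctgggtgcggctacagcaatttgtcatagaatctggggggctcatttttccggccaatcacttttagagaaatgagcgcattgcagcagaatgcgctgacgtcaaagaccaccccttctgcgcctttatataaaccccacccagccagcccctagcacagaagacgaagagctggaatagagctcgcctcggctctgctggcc
Plagl1: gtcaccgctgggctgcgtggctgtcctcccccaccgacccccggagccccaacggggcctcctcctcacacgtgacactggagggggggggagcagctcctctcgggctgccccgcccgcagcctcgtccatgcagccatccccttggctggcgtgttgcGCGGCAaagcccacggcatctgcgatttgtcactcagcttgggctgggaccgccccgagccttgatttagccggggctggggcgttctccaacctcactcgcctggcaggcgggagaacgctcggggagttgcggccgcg
Nnat: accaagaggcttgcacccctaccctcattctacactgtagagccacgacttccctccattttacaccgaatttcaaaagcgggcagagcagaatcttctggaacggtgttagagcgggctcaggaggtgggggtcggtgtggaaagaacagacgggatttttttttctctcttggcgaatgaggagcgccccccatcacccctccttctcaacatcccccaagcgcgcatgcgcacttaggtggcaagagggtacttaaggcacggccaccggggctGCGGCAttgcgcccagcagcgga

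Meg3, Plagl1 and Nnat each held 1 match and Dlk1 held 0. Promoters of 29 of the 37 genes were used, 49 in all, each of 300 bases. Any on 1 chromosome were left out for the imprinted genes but kept among all promoters of the table. A match stood in 11 of the 49 promoters (22.4%), against 11.6% of all 32851 promoters in the table. By gene, at least 1 promoter held a match for 10 of the 29 (34.5%), against 13.1% of all 27025 genes. The imprinted genes had more promoters per gene, which by itself raises the share with at least 1 match. The 11 include windows of Mest that overlap. The 10 genes were Calcr, Grb10, Igf2, Meg3, Mest, Nnat, Osbpl5, Plagl1, Snrpn and Zim1. Matches were found for 5 of 16 genes of the paternal copy (31.2%) and 5 of 12 of the maternal copy (41.7%). Imprinted promoters were also richer in CpG, with a median observed to expected ratio of 0.58 against 0.38, and in GC, with a median of 55.7% against 52.7%. The part of base composition in the share that holds the hexamer was not tested. These are descriptions of letters in a window, not of bound sites.

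Levels below are scanner intensities after every array was scaled to 1 shared 75th percentile of 708 units, given for Stella-GFP first and Dazl-GFP second. They can be set against each other across arrays for 1 gene but not between genes, because probes differ in brightness. Differences are on the log2 scale, estimated with limma over all 20835 genes in 1 model of group and line, and they counted as changed at a Benjamini-Hochberg adjusted p under 0.05. Depth does not apply to arrays; their number limits the precision, and 64% to 74.4% of the spots were well above background. All 8 ES cell markers (Pou5f1, Sox2, Nanog, Zfp42 and 4 others) were above background on all 12 arrays, with a summed level of 267000 to 478000 units. Most of that sum is Dppa5a, at 153000 to 335000 units, so it says little about the other markers. Markers of the feeder fibroblasts were also present, with 18 or 19 of 19 above background on each array, Fap alone missing from most, and a summed level of 31700 to 120000 units.

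Of the 35 genes, 22 changed in at least 1 of 8 comparisons (62.9%, against 40.5% of all genes), and 13 changed in none. The 37 genes and the other lists were chosen with earlier results of these data known. The part of that choice in the shares given here and below was not tested. Genes above background on all 12 arrays, as 33 of the 35 were, are also called more often. At day 3 in FBS 2916 of 16579 such genes passed when fitted alone, against 2518 of all 20835 genes. The 8 comparisons were serum-free against FBS at each of the 3 days, day 3 and day 10 against day 0 in each medium, and Dazl-GFP against Stella-GFP. Comparisons in 1 medium share their day 0 arrays, and the comparisons between media share arrays with those over time. Cdkn1c and Phlda2 changed in 6 of the 8, Dlk1 and Grb10 in 5, and Dio3, Plagl1 and Snrpn in 4. The plot of fitted changes for 34 of the 35 genes shows which of them were lower over time in both media.

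**Figure D1:**
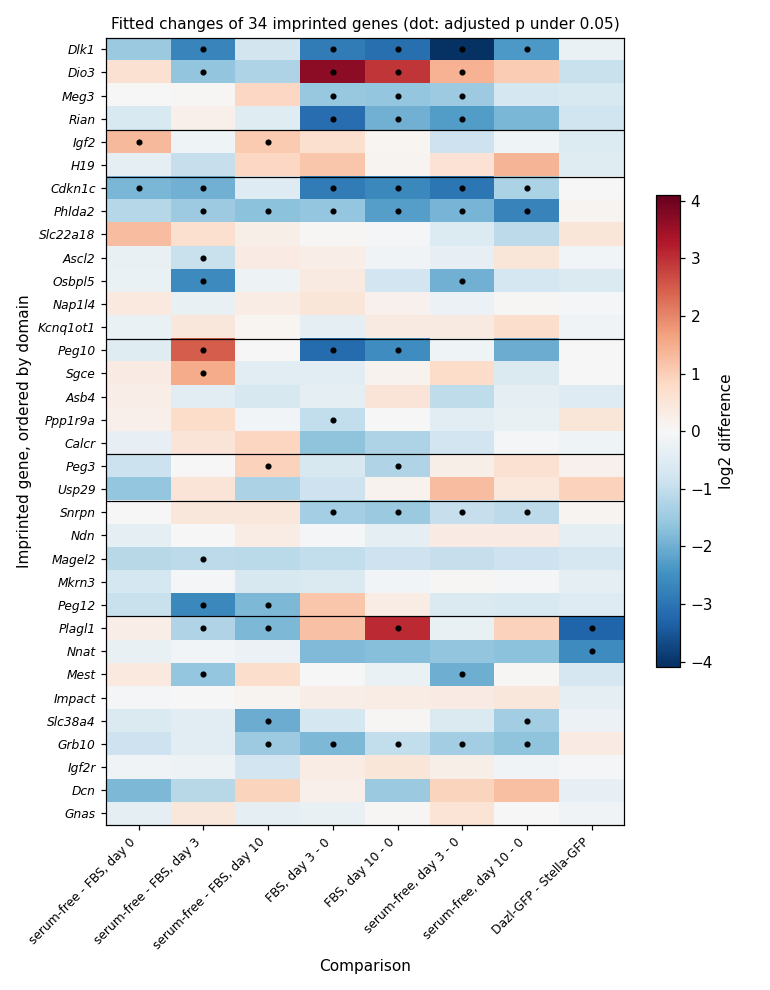
Fitted log2 differences of 34 imprinted genes (rows, grouped by domain with lines between domains) in 8 comparisons (columns), blue for lower and red for higher; a dot marks an adjusted p under 0.05. Cdkn1c, Phlda2, Dlk1, Grb10 and Snrpn are blue with a dot in all 4 columns of change over time, and Dio3 is the only gene red with a dot in 3 of them.

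Over time more imprinted genes were called lower than higher, in both media. The limits given above, of the choice of genes and of signal over background, apply to these shares. In FBS 9 of 35 were lower and 1 higher at day 3, which is 25.7% and 2.86% of them, against 5.29% and 6.79% of all genes (12.1% in either direction). At day 10 in FBS 9 were lower (25.7%, all genes 5.4%) and 3 higher (8.57%, all genes 7.53%), with 12.9% of all genes called in all. In serum-free medium 9 were lower (25.7%, all genes 8.04%) and 1 higher (2.86%, all genes 5.92%) at day 3, where 14% of all genes were called. At day 10 in serum-free medium 6 were lower (17.1%, all genes 3.15%) and 0 higher (all genes 2.19%), with 5.35% of all genes called. Peg10, which passed the filter only through arrays of the groups where it is high, is 1 of the genes counted as lower at each day in FBS. The median change over the 35 was -0.38, -0.10, -0.46 and -0.31 in that order, beside 0.10, -0.03, -0.04 and 0.12 over all genes.

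The FBS and serum-free time courses share no arrays. At day 3, 8 genes were called in both media, 80% of each list of 10, all 8 in the same direction, whereas the 862 genes of the whole array called in both were 34.2% of the FBS calls and 29.6% of the serum-free calls. The 8 were Cdkn1c, Dio3, Dlk1, Grb10, Meg3, Phlda2, Rian and Snrpn. At day 10, 5 genes (Cdkn1c, Dlk1, Grb10, Phlda2 and Snrpn) were called in both, 41.7% of the FBS list and 83.3% of the serum-free list, against 20.9% and 50.5% over all genes. The difference between the media in the day 3 response was itself tested and passed for 1 of 35 genes, Osbpl5 (1.63% of all genes passed), a call lost in 8 of 12 fits that left out 1 array; for day 10 it passed for 0, with 11 at an unadjusted p under 0.05 (0.072% of all genes passed).

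These counts moved with single arrays. Calls over all genes also fell in each of the fits named here, so the drops are not particular to imprinted genes. Without the Dazl-GFP FBS day 3 array 4 genes passed at day 3 in FBS, and without the Stella-GFP FBS day 10 array 7 passed at day 10. In serum-free medium 5 or 6 passed at day 3 without 1 of the day 3 arrays (Stella-GFP or Dazl-GFP) and 2 without the Dazl-GFP day 0 array. For serum-free day 10 the counts were 3 without the Stella-GFP day 0 or day 10 array and 0 without the Dazl-GFP day 0 or day 10 array (9 and 13 at an unadjusted p under 0.05). Each of these fits leaves 1 group with a single array, which is then assumed to vary like the other groups.

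Fibroblast markers did not follow 1 course over these days. At day 3 in FBS 1 of 18 tested fibroblast genes was higher, 0 were lower and the median was 0.69, and their summed level went from 56900 to 64900 units at day 0 to 74900 to 120000 at day 3, while 9 imprinted genes fell. At day 3 in serum-free medium 10 of 18 were lower and 1 higher, with a median of -1.29 and a sum of 31700 to 38500 units against 52400 to 57600 at day 0. At day 10 the medians were 0.06 in FBS and -0.31 in serum-free medium. Summed levels of neural markers went from 5000 to 9630 units at day 0 to 14600 to 20500 at day 3 in FBS, where 1 of 10 was higher and 0 lower. Those of trophoblast markers went from 9260 to 10200 to 16000 to 17800 in the same comparison, with 2 of 9 higher and 0 lower. Single genes gave much of each sum at day 3. Tubb3 went from 4230 and 2720 units to 14600 and 10800, and Tfap2c of the trophoblast list from 2710 and 1970 to 11600 and 12700. Krt18 of that list went from 5120 and 5030 to 1480 and 2390. Changes were positive for 8 and negative for 2 neural genes, and for 6 and 3 trophoblast genes. Of the 8 ES cell markers, 2 were higher and 2 lower at day 3 in FBS, and 3 higher and 2 lower at day 10. That is 50% and 62.5% of them, against 12.1% and 12.9% of all genes. In serum-free medium 1 was higher and 0 lower at day 3 (12.5%, all genes 14%), and 0 passed at day 10 (all genes 5.35%). The part of all these markers in the changes was not tested. Fewer cells of a type and less RNA per cell cannot be told apart in such bulk samples, and the part of the feeder cells in the serum-free day 3 changes was not tested.

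**Figure D2:**
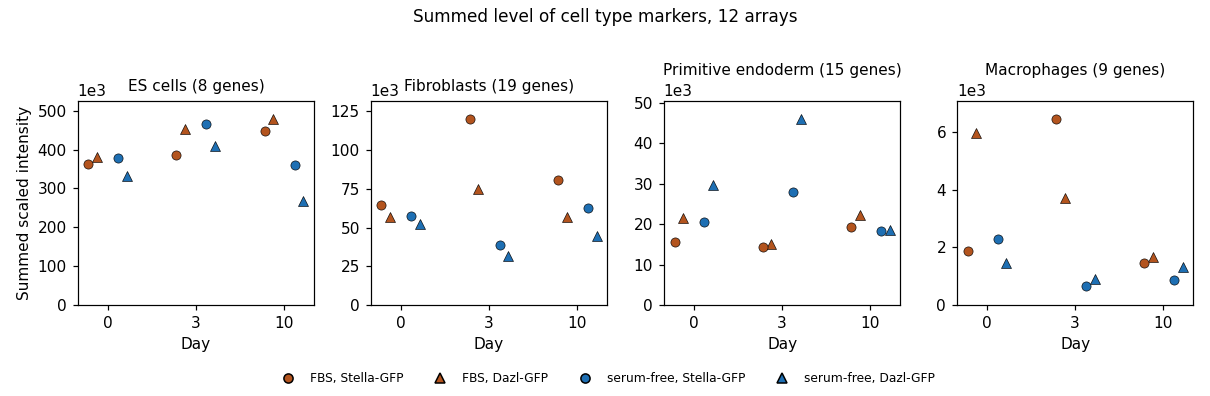
Summed scaled intensity of the markers of ES cells, fibroblasts, primitive endoderm and macrophages (panels, linear axes from 0) on each array by day, medium (colour) and line (symbol). Fibroblast markers are lowest on the 2 serum-free day 3 arrays (31700 and 38500 units) and highest on the Stella-GFP FBS day 3 array (120000). The sums of ES cell markers lie between 267000 and 478000, and Dppa5a gives most of them.

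The Dlk1-Dio3 domain on chromosome 12 gave the widest movement over time, with 3 genes falling and 1 rising. Dlk1 encodes a membrane protein related to Notch ligands that holds back adipocyte formation, and Dio3 the deiodinase that inactivates thyroid hormone; both are products of the paternal copy. Meg3 and Rian are long noncoding RNAs of the maternal copy, Rian being the host of small nucleolar RNAs.

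Dlk1 in FBS read 1380 and 723 units at day 0, 131 and 142 at day 3 and 150 and 91.1 at day 10. In serum-free medium it read 317 and 389 units at day 0, 23 and 19.2 at day 3 and 73.8 and 64 at day 10. All 8 later arrays lie below all 4 arrays of day 0, and the serum-free day 3 arrays are the lowest. In FBS it fell by 2.87 (SE 0.30, adjusted p = 0.00485) at day 3 and by 3.1 (SE 0.30, adjusted p = 0.0023) at day 10. In serum-free medium the fall was 4.06 (SE 0.30, adjusted p = 0.00183) at day 3, or 16.7-fold, and 2.35 (SE 0.30, adjusted p = 0.011) at day 10. The FBS day 3 and day 10 calls and the serum-free day 3 call held in all 12 fits that left out 1 array. The serum-free day 10 call was lost without the Stella-GFP serum-free day 10 array (adjusted p = 0.0569) or the Dazl-GFP serum-free day 0 array (adjusted p = 0.106) or the Dazl-GFP serum-free day 10 array (adjusted p = 0.0904). A second Dlk1 probe fell less in serum-free medium, by 2.37 at day 3 and by 1.08 at day 10 (adjusted p = 0.0055 and 0.084). With the slide added as a block the serum-free day 10 value was -2.06 (adjusted p = 0.0896), while within slide 3, which held all serum-free Stella-GFP arrays, it was -2.10.

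Meg3 fell alongside it. It read 6470 and 6270 units at day 0, 3170 and 1500 at day 3 and 2650 and 1690 at day 10 in FBS and 7670 and 5190 units at day 0, 2810 and 1820 at day 3 and 4860 and 2950 at day 10 in serum-free medium. The later arrays lie below day 0 in both lines throughout, though the Stella-GFP serum-free array of day 10 came close to the Dazl-GFP array of day 0. Falls were 1.55 (SE 0.23, adjusted p = 0.00964) and 1.59 (SE 0.23, adjusted p = 0.0068) at days 3 and 10 in FBS and 1.48 (SE 0.23, adjusted p = 0.0103) at day 3 in serum-free medium. At day 10 in serum-free medium the value was -0.74 (SE 0.23, adjusted p = 0.112). All 4 other Meg3 probes passed in the same 3 comparisons, with falls of 1.19 to 1.67. Leaving out arrays, the calls were lost without the Dazl-GFP FBS day 3 array (adjusted p = 0.0632) for day 3 in FBS, without the Dazl-GFP FBS day 10 array (adjusted p = 0.0557) for day 10, and in 4 of 12 fits for serum-free day 3 (adjusted p up to 0.0907). Without the line in the model these values were -1.55 (adjusted p = 0.0651), -1.59 (adjusted p = 0.0556) and -1.48 (adjusted p = 0.0668).

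Rian read 463 and 236 units at day 0, 66.6 and 21.4 at day 3 and 116 and 60.1 at day 10 in FBS and 352 and 130 units at day 0, 41 and 47.3 at day 3 and 60 and 57.6 at day 10 in serum-free medium. All day 3 and day 10 arrays lie below all day 0 arrays of both media. The falls were 3.13 (SE 0.45, adjusted p = 0.00827) and 1.99 (SE 0.45, adjusted p = 0.0285) in FBS and 2.28 (SE 0.45, adjusted p = 0.0197) at day 3 in serum-free medium, where day 10 gave -1.86 (SE 0.45, adjusted p = 0.0585). Its second probe passed in the same 3 comparisons, by 1.84, 1.62 and 1.79. The day 3 FBS call was lost without the Dazl-GFP FBS day 3 array (adjusted p = 0.0551), the day 10 FBS call in 4 of 12 fits (adjusted p up to 0.143) and the serum-free call in 3 (up to 0.122). With the slide as a block the day 10 FBS value was -2.37 (adjusted p = 0.0635).

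Dio3 went the other way. It read 297 and 117 units at day 0, 2320 and 2420 at day 3 and 1920 and 1040 at day 10 in FBS and 372 and 221 units at day 0, 984 and 611 at day 3 and 1110 and 316 at day 10 in serum-free medium. Day 3 is the highest day for all but the Stella-GFP serum-free arrays, where day 10 is higher. In FBS it rose by 3.67 (SE 0.39, adjusted p = 0.00485) at day 3, or 12.7-fold, and by 2.93 (SE 0.39, adjusted p = 0.00504) at day 10; both calls held in all 12 fits leaving out 1 array. In serum-free medium it rose by 1.43 (SE 0.39, adjusted p = 0.0497) at day 3, at the edge of the threshold, and this call was lost in 8 of 12 such fits (adjusted p up to 0.202) and, with quantile normalization or no filter, missed the threshold too. Day 10 in serum-free medium gave 1.04 (SE 0.39, adjusted p = 0.149). Dio3 has 1 probe on the array, so no second probe checks it.

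Between the media, Dlk1 was lower in serum-free medium at day 3 by 2.70 (SE 0.30, adjusted p = 0.00279) and Dio3 by 1.61 (SE 0.39, adjusted p = 0.026), whereas Meg3 and Rian gave 0.05 (adjusted p = 0.877) and 0.22 (adjusted p = 0.731). The Dlk1 call held in all 12 fits leaving out 1 array, and its second probe gave -1.43 (adjusted p = 0.0153). The Dio3 call was lost in 3 of the 12 (adjusted p up to 0.151) and was -0.60 (adjusted p = 0.364) with the slide as a block. At day 0 Dlk1 gave -1.51 (SE 0.30, adjusted p = 0.0578). In the day 3 comparison 16 of 18 fibroblast genes were also lower and 1 higher, with a median of -2.16, and the part of feeder RNA in the Dlk1 difference was not tested.

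**Figure D3:**
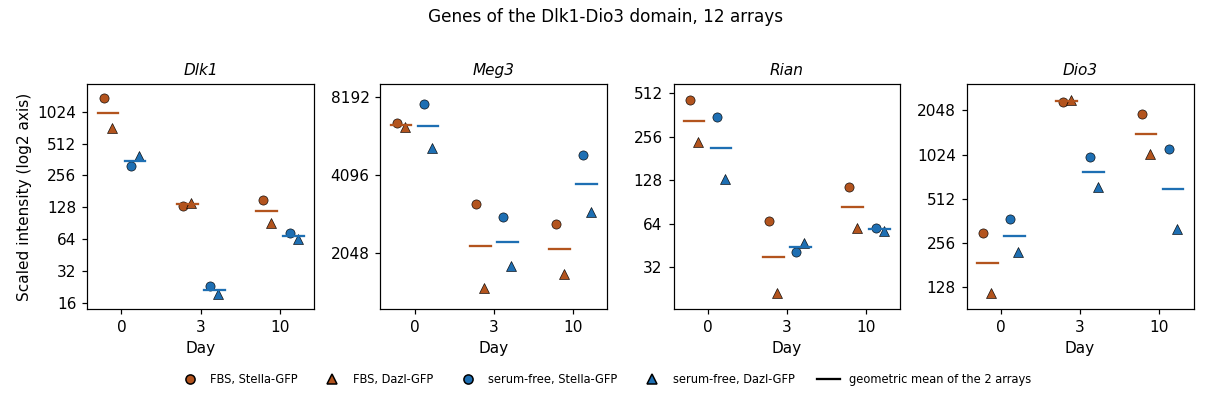
Scaled intensity (log2 axis) of Dlk1, Meg3, Rian and Dio3 on each array by day, medium (colour) and line (symbol), with a bar at the geometric mean of the 2 arrays of a group. Dlk1, Meg3 and Rian drop from day 0 to day 3 in both media, Dlk1 to 19.2 and 23 units in serum-free medium, while Dio3 climbs to 2320 and 2420 units in FBS.

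In the Kcnq1 domain on chromosome 7, 2 growth-limiting genes of the maternal copy fell throughout and their neighbours mostly did not. Cdkn1c encodes the cyclin-dependent kinase inhibitor p57, and Phlda2 a small protein that limits growth of the placenta. Of the 7 genes measured, 2 were lower at day 3 and 2 at day 10 in FBS, and 3 and 2 in serum-free medium, with 0 higher. Of all genes, 5.29% and 5.4% were lower in FBS and 8.04% and 3.15% in serum-free medium. The shares higher were 6.79%, 7.53%, 5.92% and 2.19% in that order.

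Cdkn1c read 5300 and 7200 units at day 0, 748 and 970 at day 3 and 1100 and 871 at day 10 in FBS and 1660 and 1720 units at day 0, 261 and 181 at day 3 and 707 and 662 at day 10 in serum-free medium. The FBS day 0 arrays are the highest and the serum-free day 3 arrays the lowest, with no overlap between day 0 and the later days in either medium. In FBS it fell by 2.86 (SE 0.26, adjusted p = 0.00431) and 2.66 (SE 0.26, adjusted p = 0.0023) at days 3 and 10. In serum-free medium the falls were 2.96 (SE 0.26, adjusted p = 0.00243) and 1.30 (SE 0.26, adjusted p = 0.0352). It was lower in serum-free medium at day 0, by 1.87 (SE 0.26, adjusted p = 0.0254) or 3.66-fold, and at day 3, by 1.97 (SE 0.26, adjusted p = 0.00442); day 10 gave -0.52 (SE 0.26, adjusted p = 0.259). Leaving out arrays ended none of the FBS or serum-free day 3 calls nor the day 3 difference between media, but ended the day 0 difference in 5 of 12 fits (adjusted p up to 0.168) and the serum-free day 10 fall in 4 (up to 0.236). With the slide as a block these 2 were -2.24 (adjusted p = 0.323) and -1.51 (adjusted p = 0.11); no slide held both media at day 0.

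Phlda2 also fell at both days in both media. It read 16900 and 15500 units at day 0, 5190 and 5610 at day 3 and 3760 and 3070 at day 10 in FBS and 6240 and 8190 units at day 0, 1510 and 2450 at day 3 and 1140 and 989 at day 10 in serum-free medium. Each later day is lower than the one before it in both lines and both media. The falls were 1.58 (SE 0.26, adjusted p = 0.0124) and 2.25 (SE 0.26, adjusted p = 0.00331) in FBS and 1.90 (SE 0.26, adjusted p = 0.00653) and 2.75 (SE 0.26, adjusted p = 0.00556) in serum-free medium, the last of these 6.75-fold. It was lower in serum-free medium by 1.49 (SE 0.26, adjusted p = 0.00955) at day 3 and 1.68 (SE 0.26, adjusted p = 0.0168) at day 10, and at day 0 the value was -1.18 (SE 0.26, adjusted p = 0.065). The day 10 FBS call held in all 12 fits leaving out 1 array, the serum-free day 3 call was lost without the Dazl-GFP serum-free day 0 array (adjusted p = 0.0706), and the serum-free day 10 call without the Dazl-GFP serum-free day 0 array (adjusted p = 0.0727) or the Dazl-GFP serum-free day 10 array (adjusted p = 0.0594). The day 3 FBS call was lost in 3 of the 12 and the media differences in 3 at day 3 and 4 at day 10 (adjusted p up to 0.0826, 0.0638 and 0.125). Blocking on the slide, the media differences were -1.10 (adjusted p = 0.067) and -0.93 (adjusted p = 0.43).

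Osbpl5, a lipid transfer protein gene of the same domain, moved in serum-free medium. It read 884 and 755 units at day 0, 1520 and 737 at day 3 and 668 and 335 at day 10 in FBS and 773 and 589 units at day 0, 200 and 151 at day 3 and 478 and 352 at day 10 in serum-free medium, so that the 2 serum-free day 3 arrays are the lowest of the 12. It fell in serum-free medium by 1.96 (SE 0.24, adjusted p = 0.00486) at day 3, a call lost only without the Dazl-GFP serum-free day 0 array (adjusted p = 0.0566) among the 12 fits that left out 1 array. In FBS the day 3 value was 0.38 (SE 0.24, adjusted p = 0.34), and the test of the difference between these responses gave -2.33 (SE 0.34, adjusted p = 0.0346). This last call was lost in 8 of 12 fits leaving out 1 array (adjusted p up to 0.138), with the slide as a block (adjusted p = 0.0724) and without the line in the model (adjusted p = 0.11). At day 3 it was lower in serum-free medium by 2.61 (SE 0.24, adjusted p = 0.00177), or 6.1-fold, which held in all 12 fits and was -2.98 (adjusted p = 0.0253) with the slide as a block. Ascl2, a transcription factor of trophoblast, was dim on all arrays. It read 116 and 119 units at day 0, 144 and 140 at day 3 and 112 and 99.2 at day 10 in FBS and 108 and 83.5 units at day 0, 86.7 and 64.3 at day 3 and 120 and 151 at day 10 in serum-free medium. It was lower in serum-free medium at day 3, without overlap, by 0.93 (SE 0.21, adjusted p = 0.0213), a call lost in 4 of the 12 fits (adjusted p up to 0.139).

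The other 3 genes of the domain did not pass in any comparison. Kcnq1ot1, the paternal noncoding RNA that silences the domain on that copy, stayed between 761 and 1850 units, with -0.38 (adjusted p = 0.332) at day 3 in FBS and 0.37 (adjusted p = 0.349) in serum-free medium. Nap1l4, a histone chaperone gene, varied least of the 35 genes, by 1.61-fold between its lowest and highest array (25900 and 41600 units). Slc22a18, a transporter gene, ranged from 177 to 1100 units and gave 1.26 (adjusted p = 0.198) between media at day 0.

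Away from these domains, Grb10 and Snrpn fell in all 4 comparisons over time by their brightest probes. Grb10, on chromosome 11, encodes an adaptor that damps insulin and IGF receptor signalling and is expressed from the maternal copy in most tissues. It read 9950 and 10700 units at day 0, 2810 and 2990 at day 3 and 4150 and 6300 at day 10 in FBS and 4950 and 6540 units at day 0, 1800 and 2460 at day 3 and 1610 and 2050 at day 10 in serum-free medium. The falls were 1.83 (SE 0.18, adjusted p = 0.00462) and 1.01 (SE 0.18, adjusted p = 0.0122) in FBS and 1.44 (SE 0.18, adjusted p = 0.00501) and 1.65 (SE 0.18, adjusted p = 0.00785) in serum-free medium, and it was lower in serum-free medium at day 10 by 1.49 (SE 0.18, adjusted p = 0.00874). The day 3 FBS call held in all 12 fits leaving out 1 array. The day 10 FBS call was lost without the Stella-GFP FBS day 0 array (adjusted p = 0.0536) or the Stella-GFP FBS day 10 array (adjusted p = 0.084), the serum-free day 3 call without the Dazl-GFP serum-free day 0 array (adjusted p = 0.0577), the serum-free day 10 call without the Dazl-GFP serum-free day 0 array (adjusted p = 0.0859) or the Dazl-GFP serum-free day 10 array (adjusted p = 0.0686), and the difference between media without the Dazl-GFP FBS day 10 array (adjusted p = 0.0747) or the Dazl-GFP serum-free day 10 array (adjusted p = 0.0732). Blocking on the slide gave that difference as -1.23 (adjusted p = 0.364), and the day 10 falls were -0.95 (adjusted p = 0.0692) in FBS and -1.55 (adjusted p = 0.0689) in serum-free medium. Of 2 other Grb10 probes above background, 1 gave -0.40 (adjusted p = 0.38) at day 10 in FBS and passed in the other 4 comparisons. The other probe passed in FBS and at day 3 in serum-free medium, and missed at day 10 in serum-free medium, at -1.22 (adjusted p = 0.0552), and between media, at -1.05 (adjusted p = 0.0781).

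Snrpn, in the Prader-Willi domain on chromosome 7, encodes the splicing protein SmN from the paternal copy. It read 5180 and 5050 units at day 0, 1960 and 1890 at day 3 and 1840 and 1730 at day 10 in FBS and 4370 and 6070 units at day 0, 2560 and 2740 at day 3 and 2220 and 2700 at day 10 in serum-free medium, with all later arrays below all day 0 arrays. It fell by 1.41 (SE 0.19, adjusted p = 0.00738) and 1.52 (SE 0.19, adjusted p = 0.00396) in FBS and by 0.96 (SE 0.19, adjusted p = 0.0197) and 1.07 (SE 0.19, adjusted p = 0.0229) in serum-free medium. The day 3 FBS call was lost without the Dazl-GFP FBS day 3 array (adjusted p = 0.0537) and the day 10 FBS call held in all 12 fits. The serum-free calls were lost in 3 and 4 of the 12 (adjusted p up to 0.148 and 0.195). With the slide as a block the serum-free day 10 value was -0.99 (adjusted p = 0.112). A second Snrpn probe passed in all 4 comparisons, with falls of 0.93 to 1.70.

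The remaining Prader-Willi genes did not share the fall of Snrpn as calls. Peg12, a gene of the FRAT family of GSK3-binding proteins, differed between media. It read 556 and 228 units at day 0, 817 and 767 at day 3 and 477 and 412 at day 10 in FBS and 241 and 151 units at day 0, 180 and 88.3 at day 3 and 117 and 132 at day 10 in serum-free medium. It was lower in serum-free medium by 2.65 (SE 0.35, adjusted p = 0.00446) at day 3, or 6.28-fold, and by 1.84 (SE 0.35, adjusted p = 0.0308) at day 10. The day 3 call held in all 12 fits leaving out 1 array and the day 10 call was lost in 6 (adjusted p up to 0.169); with the slide as a block they were -2.59 (adjusted p = 0.0508) and -1.93 (adjusted p = 0.408). Magel2, a MAGE family gene, read 412 and 166 units at day 0, 155 and 110 at day 3 and 185 and 114 at day 10 in FBS and 141 and 102 units at day 0, 86.6 and 43.8 at day 3 and 70.2 and 64.2 at day 10 in serum-free medium. The media do not overlap at day 3, and the difference of 1.08 (SE 0.28, adjusted p = 0.0309) was lost in 4 of the 12 fits (adjusted p up to 0.174). It was -1.02 (adjusted p = 0.212) after blocking on the slide and -1.08 (adjusted p = 0.147) without the line in the model. Ndn and Mkrn3 passed in none of the 8 comparisons, at 317 to 625 and 50.2 to 112 units.

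Mest, a hydrolase-fold gene of the paternal copy on chromosome 6, fell in serum-free medium at day 3, and at day 10 it did not pass. It read 16900 and 12900 units at day 0, 4250 and 3220 at day 3 and 16300 and 14000 at day 10 in serum-free medium, against 17500 and 7210 units at day 0, 13100 and 9370 at day 3 and 15000 and 5680 at day 10 in FBS. The serum-free day 3 arrays are the lowest of the 12 and the lines lie farthest apart on the FBS arrays of days 0 and 10. The day 3 fall was 2.00 (SE 0.32, adjusted p = 0.0107) and day 10 gave 0.03 (SE 0.32, adjusted p = 0.961). At day 3 it was lower in serum-free medium by 1.58 (SE 0.32, adjusted p = 0.0154). Leaving out 1 array ended these calls in 3 and 4 of the 12 fits (adjusted p up to 0.0988 and 0.0979). The difference between media was -1.50 (adjusted p = 0.117) after blocking on the slide and -1.58 (adjusted p = 0.067) without the line in the model. Osbpl5 and Mest were lowest on the same 2 arrays as the fibroblast markers, and the part of feeder RNA was not tested.

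**Figure D4:**
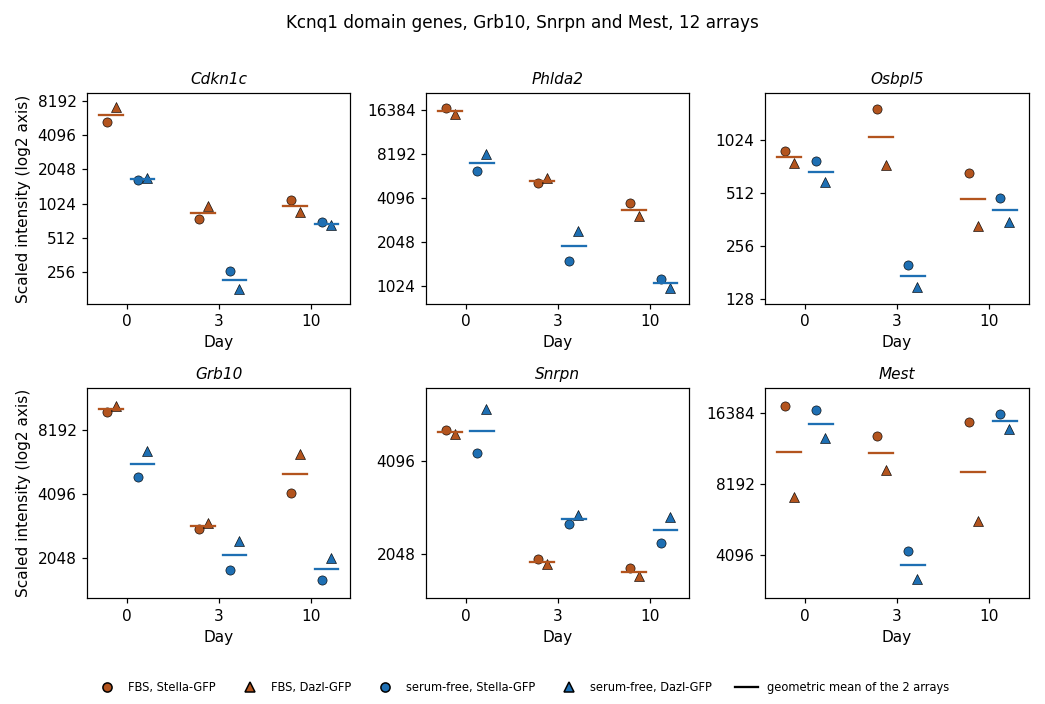
Scaled intensity (log2 axis) of Cdkn1c, Phlda2, Osbpl5, Grb10, Snrpn and Mest on each array by day, medium (colour) and line (symbol), with a bar at the geometric mean of the 2 arrays of a group. Cdkn1c, Phlda2, Grb10 and Snrpn are below day 0 at both later days in both media, whereas Osbpl5 and Mest dip in serum-free medium at day 3.

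Slc38a4, an amino acid transporter gene active in placenta and on the paternal copy, separated the media at day 10. It read 5060 and 4280 units at day 0, 3040 and 2660 at day 3 and 5460 and 4150 at day 10 in FBS and 2980 and 3260 units at day 0, 2100 and 2040 at day 3 and 1500 and 885 at day 10 in serum-free medium. The 2 serum-free day 10 arrays are the lowest of the 12. It fell in serum-free medium at day 10 by 1.44 (SE 0.22, adjusted p = 0.0166) and was lower than in FBS on that day by 2.05 (SE 0.22, adjusted p = 0.00684), or 4.14-fold. The fall was lost in 3 of 12 fits leaving out 1 array (adjusted p up to 0.15), and the difference without the Dazl-GFP FBS day 10 array (adjusted p = 0.0595) or the Dazl-GFP serum-free day 10 array (adjusted p = 0.0617). With the slide as a block they were -1.17 (adjusted p = 0.0982) and -1.40 (adjusted p = 0.342); no slide held both media at day 10.

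Between the media imprinted genes differed in a direction that depended on the gene and the day. At day 0, 1 of 35 was higher in serum-free medium and 1 lower (1.88% of all genes were called). At day 3, 3 were higher (8.57%, all genes 8.78%) and 10 lower (28.6%, all genes 13.7%), where 22.5% of all genes were called. At day 10, 2 were higher (5.71%, all genes 2.05%) and 5 lower (14.3%, all genes 3.71%), where 5.75% of all genes were called. The medians over the 35 were -0.32, -0.18 and -0.23, beside -0.02, -0.22 and 0.11 over all genes. Over all 20835 genes at day 3, 39.1% of the calls were higher, and 50.2% after quantile normalization and 20.2% after normexp correction.

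With the slide as a block, 0, 6 and 0 imprinted genes passed at days 0, 3 and 10 (8, 14 and 7 at an unadjusted p under 0.05), and only at day 3 did a slide hold both media, across the lines. Of all 20835 genes, 0, 1430 and 0 passed in the same fit, so the loss at days 0 and 10 is not particular to imprinted genes. Calls over all genes also fell in each fit below that left out 1 array. At day 0 both called genes, Cdkn1c and Igf2, were lost without either serum-free array of day 0 or of day 10. Both were also lost without the Dazl-GFP FBS day 0 array, where their differences were -1.60 and 1.48. Without an FBS day 3 or serum-free day 3 array Igf2 was lost, at 1.33, and Cdkn1c was not. At day 3 the count was 7 and 4 without the Stella-GFP and Dazl-GFP FBS array of that day, and 6 and 5 without the serum-free ones. At day 10 it was 4 without the Stella-GFP FBS day 10 array or either serum-free day 0 array, 2 without the Stella-GFP serum-free day 10 array, and 0 without the Dazl-GFP day 10 array of FBS or of serum-free medium (11 at an unadjusted p under 0.05 for each). Markers of primitive endoderm moved with the medium at day 3 as well, with 9 of 13 higher in serum-free medium and a median of 2.01; their summed level was 27900 to 46000 units against 14400 to 15100 in FBS, and Ttr was above background on no array. Macrophage markers were lower there, 5 of 8 as calls and 0 higher, with sums of 656 to 889 units against 3720 to 6440 in FBS and Ptprc above background on no array. Neural markers were lower as well, 5 of 10 as calls and 0 higher, with sums of 4850 to 7830 units against 14600 to 20500. The part of these markers in the differences was not tested.

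Igf2 was the imprinted gene that was higher in serum-free medium at day 0, and again at day 10. It encodes the fetal growth factor IGF2 from the paternal copy, next to the maternal noncoding RNA H19 on chromosome 7. Igf2 read 1710 and 1170 units at day 0, 826 and 743 at day 3 and 1510 and 1050 at day 10 in serum-free medium and 625 and 505 units at day 0, 1100 and 715 at day 3 and 887 and 399 at day 10 in FBS. The media do not overlap at days 0 and 10 and do at day 3. The difference was 1.33 (SE 0.24, adjusted p = 0.0463) at day 0, -0.18 (SE 0.24, adjusted p = 0.592) at day 3 and 1.08 (SE 0.24, adjusted p = 0.0443) at day 10. Neither call was firm, being lost in 10 and 9 of 12 fits that left out 1 array (adjusted p up to 0.243 and 0.209), and a second probe gave 1.16 and 1.02 (adjusted p = 0.0673 and 0.0669). Adding the slide as a block they were 0.88 (adjusted p = 0.43) and 0.91 (adjusted p = 0.469), and without the line in the model 1.33 (adjusted p = 0.143) and 1.09 (adjusted p = 0.181).

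H19 did not pass in any comparison. In FBS it read 185 and 261 units at day 0, 684 and 338 at day 3 and 307 and 188 at day 10. In serum-free medium it read 211 and 132 units at day 0, 342 and 185 at day 3 and 476 and 401 at day 10. Its highest value was on the Stella-GFP FBS day 3 array, where the summed level of fibroblast markers was also highest, at 120000 units. The next highest were those of serum-free day 10, where that sum was 62700 and 44800 units. The part of feeder RNA in H19 was not tested. Between media the H19 values were -0.40 (adjusted p = 0.509) at day 0 and 0.86 (adjusted p = 0.179) at day 10.

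The Peg10 domain on chromosome 6 gave calls for 3 of its 5 genes in at least 1 of the 8 comparisons, where 40.5% of all genes were called. With so few genes this count is not read as a result about the domain. Peg10, a retrotransposon-derived gene needed for the placenta, read 20.6 and 56.3 units at day 0, 4.71 and 3.14 at day 3 and 5.36 and 6.3 at day 10 in FBS and 21.9 and 27.2 units at day 0, 21.1 and 22 at day 3 and 9.93 and 3.54 at day 10 in serum-free medium. It was above background at day 0 in both media and at day 3 in serum-free medium, and on none of the other 6 arrays, so its changes are bounds, set against the dimmest signal that counted as above background on those arrays. By that measure it was at least 2.23-fold lower at day 3 and at least 3.13-fold lower at day 10 in FBS (adjusted p = 0.017 and 0.0295), and at least 1.41-fold higher in serum-free medium than in FBS at day 3 (adjusted p = 0.0237). Since Peg10 was kept in the test through the groups where it is high, these p-values are no support for a change. After normexp background correction the 3 values were -0.04, -0.43 and -0.07 (adjusted p = 0.895, 0.187 and 0.801), and after blocking on the slide the adjusted p was 0.0856, 0.121 and 0.164. Leaving out 1 array ended these calls in 3, 7 and 4 of the 12 fits (adjusted p up to 0.0955, 0.134 and 0.14).

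Its neighbour Sgce, which encodes epsilon-sarcoglycan and starts close beside Peg10, was also higher in serum-free medium at day 3. It read 1060 and 1640 units at day 0, 1170 and 816 at day 3 and 1500 and 1450 at day 10 in FBS and 1610 and 1710 units at day 0, 2310 and 3360 at day 3 and 1310 and 915 at day 10 in serum-free medium. The media do not overlap at day 3, and the difference of 1.51 (SE 0.32, adjusted p = 0.017) was lost without the Dazl-GFP FBS day 3 array (adjusted p = 0.114) or the Dazl-GFP serum-free day 3 array (adjusted p = 0.112). It was 1.47 (adjusted p = 0.111) after blocking on the slide, and a second probe gave 1.71 (adjusted p = 0.0177). Ppp1r9a, the neurabin gene, read 849 and 1910 units at day 0, 564 and 715 at day 3 and 1150 and 1450 at day 10 in FBS and 1360 and 1620 units at day 0, 942 and 1230 at day 3 and 1030 and 1400 at day 10 in serum-free medium. Its day 3 arrays in FBS are the lowest of the 12, and that fall of 1.00 (SE 0.24, adjusted p = 0.0359) was lost in 11 of 12 fits leaving out 1 array (adjusted p up to 0.157). It was -1.24 (adjusted p = 0.059) after blocking on the slide, and without the line in the model the adjusted p was 0.137. Another probe above background on all 12 arrays fell by 1.03 (adjusted p = 0.0221), and 3 probes above it on 6, 4 and 3 arrays gave -0.64, -1.52 and 0.13 (adjusted p = 0.562, 0.131 and 0.757). Asb4 and Calcr, genes of the maternal copy, passed nowhere, at 31.5 to 130 and 46.9 to 273 units.

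Peg3, a zinc finger gene of the paternal copy, made small moves. Peg3 read 190 and 219 units at day 0, 127 and 130 at day 3 and 72.2 and 106 at day 10 in FBS and 101 and 120 units at day 0, 140 and 121 at day 3 and 152 and 187 at day 10 in serum-free medium. It fell in FBS by 1.23 (SE 0.20, adjusted p = 0.00955) at day 10 and was higher in serum-free medium on that day by 0.95 (SE 0.20, adjusted p = 0.0391). The fall was lost without the Stella-GFP FBS day 10 array (adjusted p = 0.0627) and the difference in 8 of the 12 fits (adjusted p up to 0.204). After blocking on the slide they were -1.21 (adjusted p = 0.0519) and 0.74 (adjusted p = 0.539), and a second probe gave 0.95 (adjusted p = 0.0676) for the difference. Usp29, whose promoter window overlaps that of Peg3 on the other strand, passed nowhere and varied widely, from 39.8 to 582 units.

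The lines differed in 2 imprinted genes, both of the paternal copy, Plagl1 and Nnat, and both were lower in Dazl-GFP cells. That is 5.71% of the 35, against 2.72% of all genes, and 0 were higher (all genes 1.1%). The median difference over the 35 was -0.25, beside -0.03 over all genes, and 27 of 35 were below 0. Each line stands for 1 set of cultures, so this compares these lines and not the reporters.

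Plagl1 encodes the zinc finger protein ZAC1, which restrains the cell cycle and is known to act on other imprinted genes. It read 799 and 62.1 units at day 0, 1720 and 151 at day 3 and 4370 and 780 at day 10 in FBS and 889 and 80.3 units at day 0, 778 and 60 at day 3 and 1370 and 195 at day 10 in serum-free medium. Dazl-GFP was below Stella-GFP in all 6 pairs of arrays, though across media and days the highest Dazl-GFP array (780 units) reads just above the lowest Stella-GFP array (778). The difference was -3.27 (SE 0.18, adjusted p = 0.000657), or 9.68-fold. It was -3.23 (SE 0.28, adjusted p = 0.0166) in FBS and -3.33 (SE 0.28, adjusted p = 0.0171) in serum-free medium (0.605% and 0.269% of all genes passed), and the test of line by medium gave -0.10 (SE 0.39, adjusted p = 0.928). Within slide 1 it was -3.68 at day 0 in FBS and within slide 3 -2.81 at day 10 in serum-free medium, and with the slide as a block in the fit -3.25 (adjusted p = 0.0927). The call held in all 12 fits leaving out 1 array. A second Plagl1 probe gave a smaller difference of the same sign, -0.86 (SE 0.16, adjusted p = 0.0412), so the size depends on the probe.

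Plagl1 also rose in FBS by 3.05 (SE 0.32, adjusted p = 0.00253) at day 10 and was lower in serum-free medium by 1.24 (SE 0.32, adjusted p = 0.0323) at day 3 and 1.83 (SE 0.32, adjusted p = 0.0243) at day 10. At day 3 in FBS the value was 1.19 (SE 0.32, adjusted p = 0.052). The second probe, which read 76.1 and 49.1 units at day 0, 92.5 and 74.8 at day 3 and 141 and 63.9 at day 10 in FBS, gave 0.63 (adjusted p = 0.189) for the day 10 rise, and -1.09 and -0.26 (adjusted p = 0.0305 and 0.601) for the media at days 3 and 10. Because the groups overlap across lines, these calls rest on the line term: without it they were 3.05 (adjusted p = 0.385), -1.24 (adjusted p = 0.675) and -1.83 (adjusted p = 0.624). The rise held in all 12 fits leaving out 1 array, and the media differences were lost in 6 and 3 of them (adjusted p up to 0.184 and 0.125).

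Nnat, which encodes the small membrane protein neuronatin, was measured on 11 arrays, since its spot on the Dazl-GFP FBS day 0 array was marked irregular and left out. In Stella-GFP cells it read 397, 146 and 101 units at days 0, 3 and 10 in FBS and 473, 67.7 and 94.1 in serum-free medium. In Dazl-GFP cells it read 14.7 and 22.8 units at days 3 and 10 in FBS and 35.7, 26.7 and 17.6 at days 0, 3 and 10 in serum-free medium. The lines do not overlap. The difference was -2.59 (SE 0.34, adjusted p = 0.0185), or 6.0-fold, and within slide 3 it was -2.42. It was lost in 8 of 12 fits leaving out 1 array (adjusted p up to 0.0599) and was -2.42 (adjusted p = 0.411) with the slide as a block. Without 1 of the arrays of FBS day 3, FBS day 10, serum-free day 0 or serum-free day 10, 1 imprinted gene passed between the lines instead of 2. Meg3, at -0.61 (adjusted p = 0.0621), came next by adjusted p, lower in Dazl-GFP cells in all 6 pairs. For line by medium 0 of 35 passed, with 1 at an unadjusted p under 0.05 (0% of all genes passed).

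**Figure D5:**
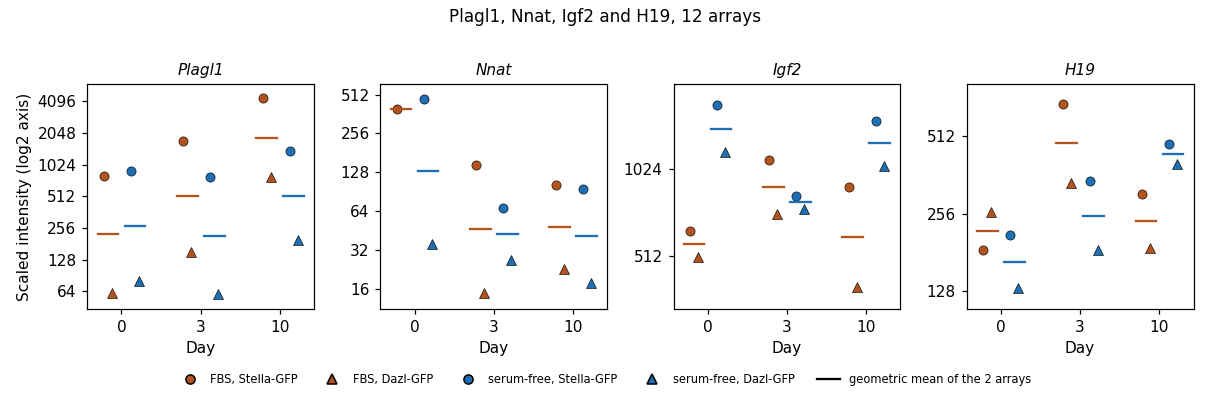
Scaled intensity (log2 axis) of Plagl1, Nnat, Igf2 and H19 on each array by day, medium (colour) and line (symbol), with a bar at the geometric mean of the arrays of a group (1 array for Nnat at day 0 in FBS). Triangles of the Dazl-GFP line lie below circles of the Stella-GFP line at every point for Plagl1 and Nnat, and Igf2 is higher in serum-free medium at days 0 and 10.

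Genes were also grouped by the parental copy listed as active for each. Which copy was active in these cells was not measured, and it can depend on the tissue. Genes of both groups were among those that fell. Of 15 genes listed for the maternal copy, 6 fell at day 3 and 5 at day 10 in FBS. In serum-free medium 6 of them fell at day 3 and 3 at day 10, and 0 rose in either medium. Of 19 listed for the paternal copy, 3 fell and 1 rose at day 3 in FBS, and 4 fell and 3 rose at day 10. For these 19 in serum-free medium, 3 fell and 1 rose at day 3, and 3 fell and 0 rose at day 10. Of all genes, 5.29% and 5.4% fell and 6.79% and 7.53% rose in FBS at days 3 and 10, and 8.04% and 3.15% fell and 5.92% and 2.19% rose in serum-free medium. The median changes of the maternal genes were -0.36 and -0.79 in FBS and -0.79 and -0.40 in serum-free medium at days 3 and 10, and of the paternal genes -0.43, 0.03, -0.18 and -0.16. The maternal genes that fell at day 3 in both media were Cdkn1c, Phlda2, Grb10, Meg3 and Rian. No test of the difference between the copies was made, and genes of 1 domain share a control region and are not independent. Gnas, expressed from the maternal copy in some tissues, passed in none of the 8.

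Among 14 measured genes that set, keep or erase imprints and DNA methylation, the de novo methyltransferases moved with the days. Dnmt3b read 23800 and 15700 units at day 0, 2760 and 2220 at day 3 and 3470 and 1200 at day 10 in FBS and 14400 and 11500 units at day 0, 2030 and 1640 at day 3 and 12500 and 13900 at day 10 in serum-free medium. It fell in FBS by 2.96 (SE 0.35, adjusted p = 0.00534) and 3.24 (SE 0.35, adjusted p = 0.00286), and in serum-free medium by 2.82 (SE 0.35, adjusted p = 0.00515) at day 3, being higher there than in FBS at day 10 by 2.69 (SE 0.35, adjusted p = 0.0112). Dnmt3a fell in FBS by 2.31 (adjusted p = 0.00615) and 2.69 (adjusted p = 0.00268), and Dnmt3l, their cofactor, by 3.02 (adjusted p = 0.0236) at day 10. Zfp57 rose in FBS by 0.79 (adjusted p = 0.0237) at day 10 and was higher in serum-free medium at day 3 by 1.16 (adjusted p = 0.00557). Zfp445, which also guards imprints, was lower in serum-free medium at day 0 by 1.41 (adjusted p = 0.0225), and Dppa3, the gene of Stella, which shields the maternal genome from demethylation, rose in FBS at day 3 by 2.70 (adjusted p = 0.0223). In all, 3 fell and 2 rose at each of days 3 and 10 in FBS (35.7% of the 14, against 12.1% and 12.9% of all genes). In serum-free medium 1 fell at day 3 and 1 rose at day 10 (7.14% at each day, against 14% and 5.35% of all genes). Between media 1 was higher in serum-free medium and 1 lower at day 0 (14.3%, all genes 1.88%). At day 3, 3 were higher and 0 lower (21.4%, all genes 22.5%), and at day 10, 2 and 0 (14.3%, all genes 5.75%). Between the lines 1 was higher in Dazl-GFP cells and 0 lower (7.14%, all genes 2.72%). Tet2 at day 0 read 599 and 1020 units in FBS and 1750 and 2330 in serum-free medium. Dnmt1 in FBS read 5010 and 4340 units at day 0 and 8900 and 7580 at day 3.

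A further list of 35 imprinted genes outside the 37, of which 25 could be tested, gave 6 lower and 2 higher at day 3 and 6 lower and 1 higher at day 10 in FBS, and 6 lower and 1 higher and 3 lower and 0 higher in serum-free medium. The lower genes are 24%, 24%, 24% and 12% of the 25, against 5.29%, 5.4%, 8.04% and 3.15% of all genes, and the higher ones 8%, 4%, 4% and 0%, against 6.79%, 7.53%, 5.92% and 2.19%. Mirg, a microRNA host transcript of the Dlk1-Dio3 domain, fell with Meg3 and Rian, by 1.88 (adjusted p = 0.0181) and 1.38 (adjusted p = 0.0427) in FBS and by 1.97 (adjusted p = 0.0154) at day 3 in serum-free medium. Inpp5f, a phosphoinositide phosphatase gene, fell in all 4 comparisons over time, by 0.87 to 1.12. Gatm, which makes the creatine precursor guanidinoacetate, and Tfpi2, a protease inhibitor gene, are among the lower genes in all 4 counts. They were above background on only 8 and 4 arrays, and they are 2 of the 3 lower genes at day 10 in serum-free medium. Gatm read 42.2 to 94.9 units at day 0 and 6.49 to 26.9 on the later arrays. Tfpi2 read 16.1 to 27.5 units at day 0 and 2.21 to 6.2 on the later arrays. It entered the test through the days where it is high, and its calls are not read as changes. The shares of lower genes above count both genes, so those shares are not read as a result about imprinted genes. Atp10a, a lipid flippase gene, was lower in serum-free medium at day 0 by 1.20 (adjusted p = 0.0397).

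The 13 imprinted genes that changed in none of the 8 comparisons were Asb4, Calcr, Dcn, Gnas, H19, Igf2r, Impact, Kcnq1ot1, Mkrn3, Nap1l4, Ndn, Slc22a18 and Usp29. Igf2r, the receptor that clears IGF2, ranged from 2480 to 5060 units and came nearest to a call at day 10, with -0.78 (adjusted p = 0.0533) between media. Impact, a regulator of translation, ranged from 6110 to 11500 units. Dcn, the proteoglycan decorin, is also a fibroblast gene and ranged from 135 to 1080 units, with -1.85 (adjusted p = 0.172) between media at day 0. A missed threshold with 2 arrays a group does not show that these genes stayed level.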

How the data were processed

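Total RNA of 12 cultures was labelled with Cy3 and hybridised, 1 sample per array, to Agilent mouse arrays on 3 slides of 4 arrays, per the labels' protocols. The deposited scanner files hold, per the file headers, background-subtracted and processed intensity for each spot from Agilent Feature Extraction, with marks for spots well above background or irregular. A deposited table of the authors holds a linear signal per spot that equalled, for 41529 of 45018 spots within 0.01 on the log2 scale, the background-subtracted signal over each array's median; it was used as an alternative.

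Here log2 of the processed intensity was taken minus each array's 75th percentile, irregular spots were left out, and spots of 1 probe were averaged. Each gene was represented by its brightest probe on average, and genes well above background on 2 or more arrays were kept. limma 3.58.1 in R 4.3.3 fitted group and line with empirical Bayes (5 residual and 2.53 prior degrees of freedom) and Benjamini-Hochberg adjustment over all 20835 genes. The replicate number is the cell line, which pairs the arrays by the labels: deviations of arrays of 1 line correlated between groups at -0.0468 to 0.573 (median 0.154, 13 of 15 pairs of groups above 0.1). The procedure was tested on simulated data.

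Genes were matched by the name in the array files; Meg3 is named there by its synonym Gtl2. The 37 genes, their domains and the other lists were chosen with earlier results of these data known. Kept members are named, except 1 that is counted but not reported here, with values by array for those named that passed 0.05 in at least 1 comparison. Alternatives were quantile normalization, normexp (offset 50), the authors' table, 2 filters, irregular spots kept, every probe, no line term, the slide as a block, only the arrays compared, and leaving out each array. Promoters came from RefSeq's GRCm38.p6.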

Additional observations from a re-analysis of the deposited data

Results flagged for a closer look

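The response of Osbpl5 to the first 3 days differed between the media by a test of the difference itself, -2.33 (SE 0.34, adjusted p = 0.0346) as serum-free minus FBS. The fall was 1.96 (SE 0.24, adjusted p = 0.00486) in serum-free medium, alike in both lines (-1.95 in the Stella-GFP line and -1.97 in the Dazl-GFP line), and the FBS value was 0.38 (SE 0.24, adjusted p = 0.34). The difference ranged from -2.61 to -1.99 over the alternatives that left out 1 array, left out the line or added the slide, with adjusted p from 0.0391 to 0.138; it was -1.99 (adjusted p = 0.0724) with the slide as a block and -2.33 (adjusted p = 0.11) without the line. In the same test 6 of 18 fibroblast genes were lower and 0 higher, and their part in the Osbpl5 value was not tested.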

How the results depend on the processing

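Of 1336 values of the 62 called changes under alternatives, 1335 kept their direction and 1038 stayed past the threshold; 1 was reversed, Peg10 between media at day 3, at -0.07 (adjusted p = 0.801) after normexp correction. The falls of Cdkn1c and Dlk1 in serum-free medium at day 3 stayed past it in every alternative run. Over all genes the counts of calls ran from 0 to 972 (day 0), 0 to 9402 (day 3) and 0 to 1634 (day 10) between media, 0 to 8285 and 0 to 3944 in FBS, 234 to 4594 and 0 to 1421 in serum-free medium at days 3 and 10, and 1 to 1298 between lines. Counts of imprinted genes past the threshold moved as follows. Without the replicate block, which here is the cell line that pairs the arrays, 7 passed at day 10 in FBS, and 1 and 3 between media at days 0 and 10. With the slide as a block, 0, 6 and 0 passed between media at days 0, 3 and 10, 1 at day 10 in serum-free medium and 0 between lines (8, 14, 7, 14 and 9 at an unadjusted p under 0.05). Of all 20835 genes, 0, 1430, 0, 40 and 1 passed there in the same order. With only the arrays compared, limma on 4 arrays passed 0 at days 3 and 10 in FBS, at day 10 in serum-free medium, and between media at days 3 and 10 (16, 15, 19, 17 and 15 at an unadjusted p under 0.05), and between lines 0 in FBS arrays alone and 0 in serum-free arrays alone (7 and 13). Of all genes, 0 passed in each of these comparisons of days or media, and 1 in each of those between lines. With normexp correction 6 passed between media at day 0 and 10 between lines. Among genes above background on all 12 arrays, these were 8 and 5, and with no filter 1 passed between media at day 0. Leaving out 1 array gave 7 to 12 at day 10 and 4 to 13 at day 3 in FBS, 0 to 8 and 2 to 12 in serum-free medium, 0 to 2, 4 to 16 and 0 to 9 between media at days 0, 3 and 10, and 1 to 3 between lines. The cause of these shifts was not tested, beyond the fewer arrays in those fits. Of 55 changes on second probes 54 had the sign of the main probe and 43 passed. The line comparison has no value without the line, and Peg10 and Nnat none under the filter on all 12 arrays. Signal over background limits Peg10 most.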

Other observations

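Several imprinted genes came near the threshold in the same direction more than once without passing. Magel2 was below day 0 by 1.00 (adjusted p = 0.0556) and 0.85 (adjusted p = 0.0887) at days 3 and 10 in FBS and by 0.96 (adjusted p = 0.0587) and 0.83 (adjusted p = 0.12) in serum-free medium. Calcr, the calcitonin receptor gene, gave -1.64 (adjusted p = 0.0753) and -1.26 (adjusted p = 0.151) in FBS, and its other probe -0.64 (adjusted p = 0.377) and -0.20 (adjusted p = 0.801). H19 gave 1.39 (adjusted p = 0.065) at day 10 in serum-free medium and 1.13 (adjusted p = 0.0756) at day 3 in FBS. Nnat gave values between -1.81 and -1.61 in all 4 comparisons over time (adjusted p from 0.104 to 0.13).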
